A study of Mus musculus with 9 samples.

Results

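The genes described here encode the NF-κB transcription factor and the IκB proteins that bind it. They are 5 subunits (Nfkb1, Nfkb2, Rel, Rela and Relb), 3 classical inhibitors (Nfkbia, Nfkbib and Nfkbie) and 2 atypical IκB proteins (Nfkbiz and Bcl3). They were chosen by name, as the rows of the count table whose mouse Ensembl identifiers carry these symbols. All 10 of 10 were found among the 22001 genes of the table, and all 10 were among the 11469 genes with enough counts to be tested. RNA sequencing was done on bone marrow-derived macrophages of C57BL6 mice, cells grown from bone marrow in culture. The 9 libraries form 3 groups of 3, each at 6 h: untreated cells in PBS (libraries A2, B2 and C2), cells labelled with 100 µg/ml Pam3CSK4 (D1, D2 and D3), and cells labelled with 100 µg/ml Pam3CSK4 and 100 µl/ml 3SL (A2plus, B2plus and C2plus). Pam3CSK4 is a synthetic lipopeptide that activates the receptor made of TLR1 and TLR2. The labels give 3SL by name and volume only, so its amount is not known.

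The inflammatory genes did not match the labels, and every direction below has to be read with this in mind. Tnf, the cytokine TNF, stood at 1730, 1728 and 1649 CPM (a gene's count scaled to the TMM-adjusted size of its library) in the 3 libraries labelled untreated, at 18.9, 17.6 and 18.6 CPM in the 3 labelled Pam3CSK4, and at 1218, 1249 and 1330 CPM in the 3 labelled with 3SL. The libraries labelled untreated thus held 93.0-fold more Tnf RNA than those labelled Pam3CSK4, although TLR2 ligands are known to raise it. Il1b, the other inflammatory gene read as a check of the labels, had means of 10152, 6.23 and 8130 CPM in the same order of groups. Each group is for this reason named by its label alone: untreated-labelled, Pam3CSK4-labelled or 3SL-labelled. The code letter D occurs only in the Pam3CSK4-labelled libraries, so the letter and the group cannot be told apart. Library totals ran from 7472482 to 43980309 counts, and 3 counts corresponded to between 0.0745 and 0.421 CPM. No label states that the libraries within a group are separate cultures or animals, and the spread behind each p-value is then that of these samples, possibly technical.

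NF-κB acts as dimers of its subunits. In resting cells the classical IκB proteins hold the dimers in the cytoplasm. Signals from Toll-like receptors activate the IκB kinase, which marks the IκB proteins for degradation, and the freed dimers enter the nucleus and switch on inflammatory genes in macrophages. Several genes of the system, Nfkbia above all, are themselves NF-κB targets, which makes the pathway a textbook case of negative feedback.

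The stretch just before the start sites of these genes was read for the κB consensus, the 10-base sequence that NF-κB dimers bind. The RefSeq promoter table on GRCm38.p6 held 9 windows of 250 bases before a start site for 7 of the 10 genes, with no entry for Nfkb1, Relb and Nfkbiz. The consensus was searched on both strands and overlapping matches were counted. It occurred in 6 of the 9 windows and in 4 of the 7 genes (Nfkbia, Nfkbie, Nfkb2 and Rel), against 7.25% of all 32851 windows of that length in the table. The windows of Rela, Nfkbib and Bcl3 held no match, which says only that these letters are not in that stretch. The 5 windows that share no more than 30 bases with annotated exons of protein-coding genes are shown 5′ to 3′ on the gene's own strand, with the bases of each match in capitals. The Nfkbia window lies at chr12:55492648-55492897 on the minus strand, with its match beginning 29 bases before the start. The Nfkbie window is chr17:45555450-45555699 on the plus strand, with a match 106 bases before the start. The Rel window is chr11:23770970-23771219 on the minus strand, with overlapping matches 92 and 91 bases before the start. The Nfkb2 window shown is chr19:46305445-46305694 on the plus strand, before one of its alternative starts, with a match 236 bases upstream of it. The Bcl3 window, with no match, is chr7:19822756-19823005 on the minus strand.
Nfkbia: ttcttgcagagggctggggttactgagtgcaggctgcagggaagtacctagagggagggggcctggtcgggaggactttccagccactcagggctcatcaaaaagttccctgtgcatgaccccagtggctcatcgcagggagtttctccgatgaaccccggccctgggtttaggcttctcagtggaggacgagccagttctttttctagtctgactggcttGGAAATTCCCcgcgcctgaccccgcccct
Nfkbie: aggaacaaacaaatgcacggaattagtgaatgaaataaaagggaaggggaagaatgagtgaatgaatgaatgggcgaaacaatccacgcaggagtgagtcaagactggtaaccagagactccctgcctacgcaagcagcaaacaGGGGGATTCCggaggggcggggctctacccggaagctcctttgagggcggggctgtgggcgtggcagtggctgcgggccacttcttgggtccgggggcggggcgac
Rel: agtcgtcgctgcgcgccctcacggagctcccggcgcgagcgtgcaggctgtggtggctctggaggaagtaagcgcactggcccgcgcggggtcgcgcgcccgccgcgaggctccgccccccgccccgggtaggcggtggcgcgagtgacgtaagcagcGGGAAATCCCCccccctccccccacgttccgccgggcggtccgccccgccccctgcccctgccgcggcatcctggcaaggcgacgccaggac
Nfkb2: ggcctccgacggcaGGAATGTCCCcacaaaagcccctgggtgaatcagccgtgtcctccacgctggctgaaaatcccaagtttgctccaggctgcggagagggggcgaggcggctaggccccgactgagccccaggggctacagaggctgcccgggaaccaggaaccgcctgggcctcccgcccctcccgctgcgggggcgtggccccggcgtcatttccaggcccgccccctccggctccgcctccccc
Bcl3: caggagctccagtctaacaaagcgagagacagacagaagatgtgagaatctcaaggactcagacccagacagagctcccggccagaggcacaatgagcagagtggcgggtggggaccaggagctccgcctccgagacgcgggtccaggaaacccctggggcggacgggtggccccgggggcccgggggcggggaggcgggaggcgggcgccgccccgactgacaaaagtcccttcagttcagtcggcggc
A match is a description of sequence and was not tested as a binding site.

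All 10 genes were called lower in the Pam3CSK4-labelled libraries than in the untreated-labelled ones, each by at least 2-fold. The fall ran from 2.15-fold for Rela to 90.1-fold for Nfkbiz, with a median log2 change of -3.44. Among all 11469 genes tested, 35.9% were called lower and 39.0% higher in this comparison at an adjusted p of 0.05 (edgeR's quasi-likelihood test, Benjamini-Hochberg adjustment), and 10.8% were called lower by at least 2-fold. The median change of all tested genes was 0.03 on the log2 scale. Being called lower was therefore common, and a fall of at least 2-fold was not. By size of fall among the 11469 genes, Nfkbiz ranked 58, Nfkbia 132, Nfkb2 196, Nfkbie 203, Bcl3 217, Relb 284, Nfkb1 421, Nfkbib 579, Rel 609 and Rela 1113. These are levels in bulk RNA, in which fewer cells of a type and less RNA per cell cannot be told apart.

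**Figure D1:**
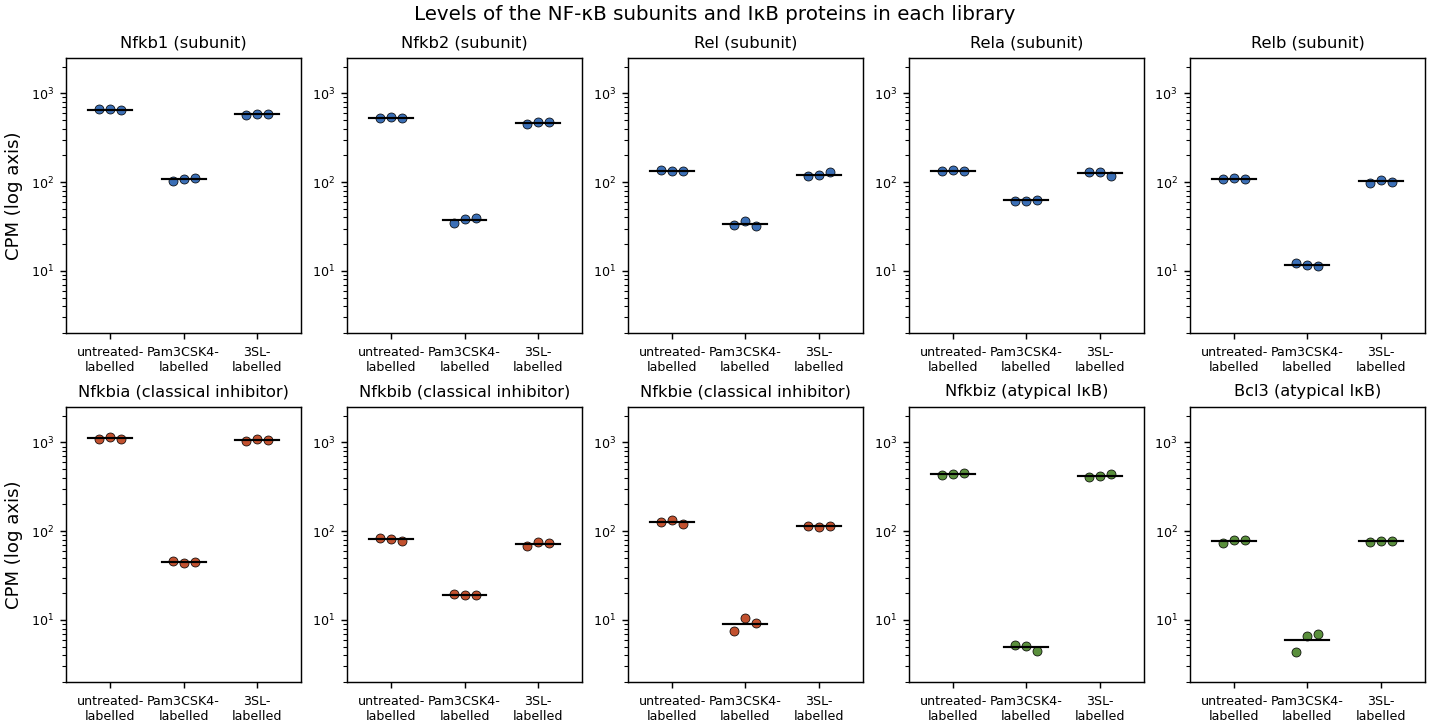
Level of each of the 10 genes in each of the 9 libraries, in CPM on a log axis, with 1 point per library and the bar at the group's mean. The Pam3CSK4-labelled points lie below both other groups for every gene, while the untreated-labelled and 3SL-labelled points lie close together.

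The subunits with the p100 and p105 precursors were read first. Nfkb1 (ENSMUSG00000028163, chr3:135584655-135691547, minus strand, GRCm38) encodes p105, which is processed to the p50 subunit. It stood at 663, 659 and 647 CPM in the untreated-labelled libraries, at 104, 108 and 110 CPM in the Pam3CSK4-labelled ones, and at 576, 583 and 584 CPM in the 3SL-labelled ones. Its level was 6.11-fold lower in the Pam3CSK4-labelled group than in the untreated-labelled one, a log2 change of -2.61 with an SE of 0.035 (edgeR adjusted p = 1.07e-29). Nfkb2 (ENSMUSG00000025225, chr19:46304320-46312385, plus strand) encodes p100, the precursor of p52 and itself an inhibitor of Relb. It stood at 525, 542 and 535 CPM in the untreated-labelled libraries, at 34.3, 38.8 and 38.9 CPM in the Pam3CSK4-labelled ones, and at 453, 478 and 475 CPM in the 3SL-labelled ones. The Pam3CSK4-labelled level was 14.3-fold lower, the largest fall among the 5 subunits (log2 change -3.83, SE 0.045, edgeR adjusted p = 6.78e-31).

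The 3 Rel proteins carry the transactivation domain and fell by different amounts. Rela (ENSMUSG00000024927, chr19:5637483-5648130, plus strand) encodes p65, the partner of p50 in the most common dimer. It stood at 132, 136 and 134 CPM in the untreated-labelled libraries, at 62.0, 61.8 and 63.5 CPM in the Pam3CSK4-labelled ones, and at 129, 130 and 119 CPM in the 3SL-labelled ones. Its fall was the smallest of the 10 genes at 2.15-fold (log2 change -1.10, SE 0.044, edgeR adjusted p = 1.44e-18). Rel (ENSMUSG00000020275, chr11:23736847-23770970, minus strand) encodes c-Rel, known for its part in lymphocytes and in macrophage cytokine genes. Its levels were 137, 133 and 132 CPM, then 33.1, 36.2 and 32.1 CPM, then 116, 119 and 129 CPM in the same order of groups, a 3.95-fold fall (log2 change -1.98, SE 0.052, edgeR adjusted p = 6.82e-23). Relb (ENSMUSG00000002983, chr7:19606217-19629438, minus strand) encodes the partner of p52 in the non-canonical pathway. It stood at 107, 110 and 108 CPM in the untreated-labelled libraries, at 12.3, 11.6 and 11.2 CPM in the Pam3CSK4-labelled ones, and at 96.8, 107 and 101 CPM in the 3SL-labelled ones. The fall of Relb was 9.27-fold (log2 change -3.21, SE 0.060, edgeR adjusted p = 3.07e-26), larger than those of Rel and Rela.

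Nfkbia had the largest fall among the classical inhibitors. It encodes IκBα, the inhibitor that NF-κB resynthesizes after activation (ENSMUSG00000021025, chr12:55489410-55492647, minus strand). It stood at 1096, 1148 and 1098 CPM in the untreated-labelled libraries, at 45.9, 44.3 and 44.9 CPM in the Pam3CSK4-labelled ones, and at 1042, 1099 and 1073 CPM in the 3SL-labelled ones. The Pam3CSK4-labelled level was 24.8-fold lower (log2 change -4.63, SE 0.039, edgeR adjusted p = 6.24e-34). Nfkbie (ENSMUSG00000023947, chr17:45555703-45563169, plus strand) encodes IκBε, which acts in feedback alongside IκBα. It stood at 128, 133 and 122 CPM, then at 7.51, 10.5 and 9.16 CPM, then at 114, 112 and 114 CPM in the untreated-, Pam3CSK4- and 3SL-labelled libraries. That is a 13.9-fold fall (log2 change -3.80, SE 0.070, edgeR adjusted p = 1.71e-26), on 94, 183 and 120 counts in the Pam3CSK4-labelled libraries. Nfkbib (ENSMUSG00000030595, chr7:28758251-28767512, minus strand) encodes IκBβ, whose gene is known as less inducible than Nfkbia. It stood at 83.7, 81.8 and 78.2 CPM in the untreated-labelled libraries, at 19.7, 19.3 and 18.9 CPM in the Pam3CSK4-labelled ones, and at 68.8, 75.2 and 73.2 CPM in the 3SL-labelled ones. Its fall was the smallest of the 3 classical inhibitors, at 4.22-fold (log2 change -2.08, SE 0.058, edgeR adjusted p = 3.45e-22).

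The atypical IκB proteins bind NF-κB in the nucleus and can help it to switch genes on. Nfkbiz (ENSMUSG00000035356, chr16:55811375-55838899, minus strand) encodes IκBζ, which is needed for a set of secondary response genes such as Il6. It stood at 436, 440 and 452 CPM in the untreated-labelled libraries, at 5.20, 5.05 and 4.43 CPM in the Pam3CSK4-labelled ones, and at 412, 419 and 437 CPM in the 3SL-labelled ones. The Pam3CSK4-labelled level was 90.1-fold lower (log2 change -6.49, SE 0.058, edgeR adjusted p = 2.52e-33), the largest fall of the 10 genes, on 65, 88 and 58 counts in those libraries. Bcl3 (ENSMUSG00000053175, chr7:19808462-19822770, minus strand) encodes a partner of p50 and p52 homodimers. It stood at 73.9, 79.4 and 78.6 CPM, then at 4.40, 6.54 and 7.02 CPM, then at 75.6, 76.9 and 77.8 CPM in the same order of groups. The fall of Bcl3 was 12.8-fold (log2 change -3.67, SE 0.086, edgeR adjusted p = 5.66e-24), on 55, 114 and 92 counts in the Pam3CSK4-labelled libraries, and it was the least precise of the 10.

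The 3SL-labelled libraries were then set against the Pam3CSK4-labelled ones. By the sample descriptions these groups differ by the added 3SL. The library names also differ, with Pamc3 in the Pam3CSK4-labelled group and Pamc4 in the 3SL-labelled one, which is not explained. Since Tnf did not match the labels, the changes were not taken as an effect of 3SL. All 10 genes were called higher in the 3SL-labelled libraries, each by at least 2-fold, with a median log2 change of 3.37. Of all genes tested, 34.7% were called higher, 36.8% lower and 10.5% higher by at least 2-fold. This comparison shares its Pam3CSK4-labelled libraries with the one above, so its values are not separate evidence of which genes move. Nfkbiz was 86.1-fold higher (log2 change 6.43, edgeR adjusted p = 5.06e-33), Nfkbia 23.8-fold higher (4.57, adjusted p = 1.07e-33), Nfkb1 5.41-fold higher (2.44, adjusted p = 7.79e-29) and Rela 2.02-fold higher (1.01, adjusted p = 5.41e-17). Between these, Bcl3 was higher by 12.7-fold, Nfkb2 by 12.5-fold, Nfkbie by 12.3-fold, Relb by 8.70-fold, Nfkbib by 3.76-fold and Rel by 3.58-fold.

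**Figure D2:**
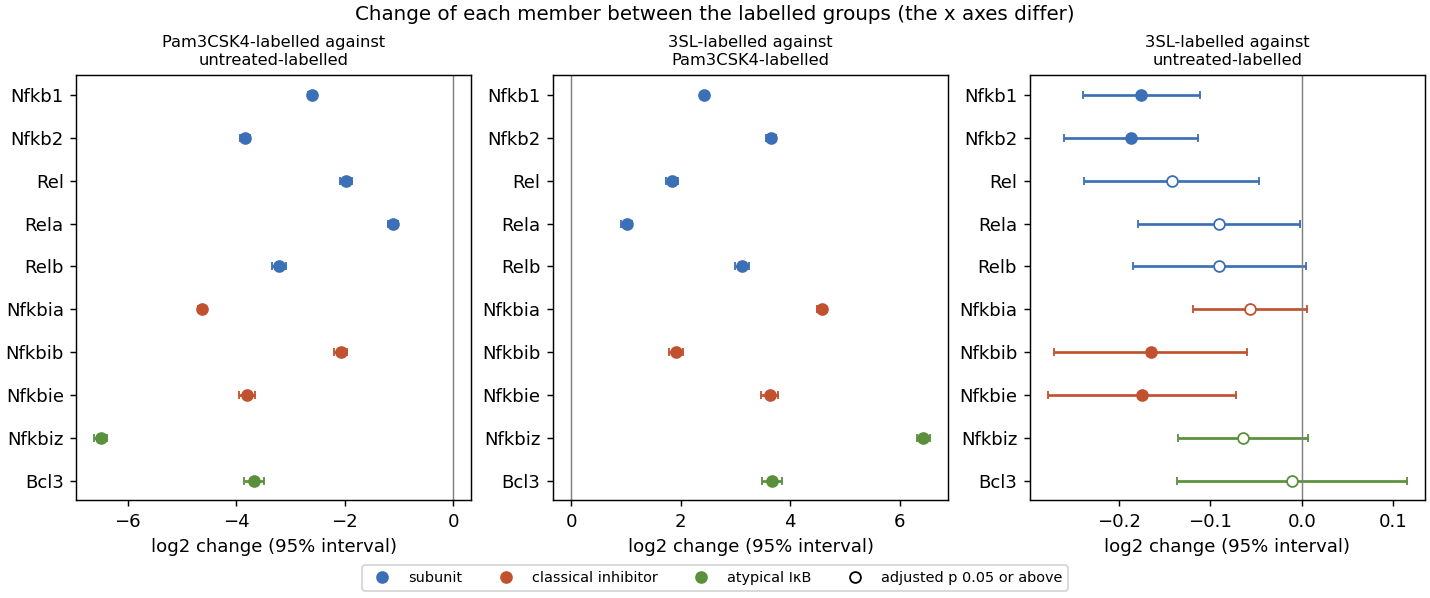
Log2 change of each of the 10 genes with its 95% interval in the 3 comparisons, 1 panel each, with filled points for genes past an adjusted p of 0.05. All 10 points lie below 0 in the first panel and above 0 in the second, and the third panel, on a much narrower axis, shows changes between -0.19 and -0.01.

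Subunits fell less than inhibitors at the median, and both classes held genes with small and large changes. Against the untreated-labelled libraries, the 5 subunits had a median log2 change of -2.61 in the Pam3CSK4-labelled ones, within a range of -3.83 to -1.10. The 3 classical inhibitors had a median of -3.80, within -4.63 to -2.08, and the 2 atypical proteins changed by -6.49 and -3.67. The ranges of subunits and classical inhibitors overlapped: Nfkbib fell less than Nfkb1, Nfkb2 and Relb, and the changes of Nfkb2 and Nfkbie differed by less than their SEs. With 5 and 3 genes that were chosen by name, this difference between classes was described and not tested.

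The balance of inhibitor to subunit RNA within each library shows the same contrast on a scale that library size does not touch. The CPM in it were not corrected for exon length. Each ratio is therefore compared between groups, and its size does not give which class had more RNA. Per kilobase of merged exons, Nfkbia stood above every subunit in each group. The summed CPM of the 3 classical inhibitors divided by that of the 5 subunits was 0.836, 0.862 and 0.835 in the untreated-labelled libraries. It was 0.297, 0.290 and 0.285 in the Pam3CSK4-labelled libraries, and 0.893, 0.908 and 0.895 in the 3SL-labelled ones. The untreated-labelled mean was 2.91-fold above the Pam3CSK4-labelled one, and the 3 groups did not overlap. Nfkbia made up most of the inhibitor sum in every group. The ratio of Nfkbia to Rela lay between 8.21 and 8.44 in the untreated-labelled libraries, between 0.708 and 0.741 in the Pam3CSK4-labelled ones and between 8.06 and 9.04 in the 3SL-labelled ones, an 11.5-fold difference between the first 2 groups. The ratio of Nfkbib to Rela moved less, from 0.585 to 0.634 in the untreated-labelled libraries down to 0.298 to 0.317 in the Pam3CSK4-labelled ones, with 0.532 to 0.617 in the 3SL-labelled ones. These are ratios of RNA and do not measure protein.

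**Figure D3:**
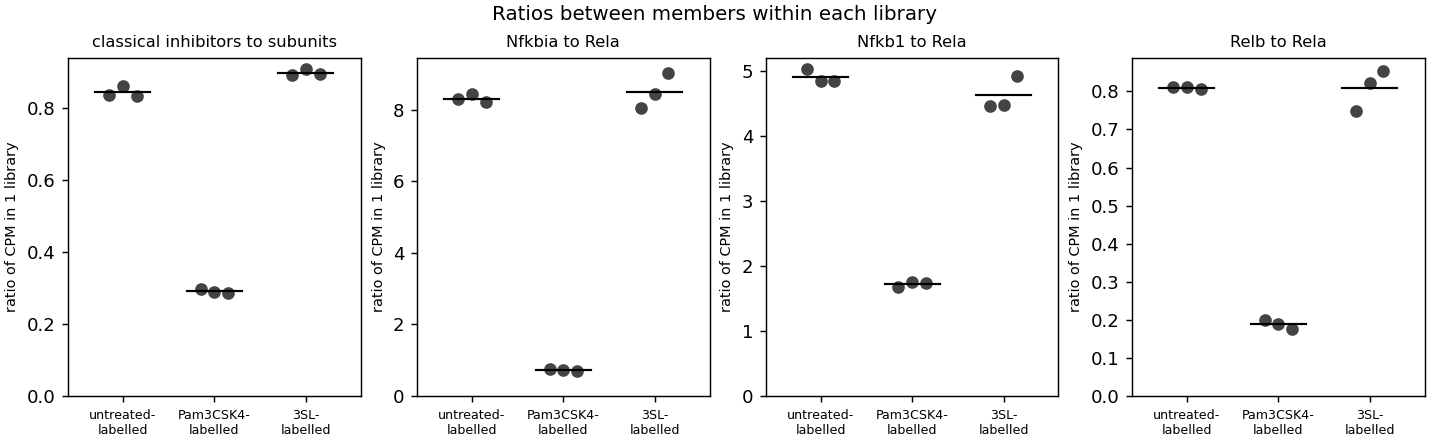
Ratios of CPM within each library for summed classical inhibitors over summed subunits and for Nfkbia, Nfkb1 and Relb, each to Rela. The axes are linear, with 1 point per library and the bar at the group's mean. The Pam3CSK4-labelled points lie below the other groups for each ratio, furthest for Nfkbia to Rela (0.708 to 0.741 against 8.21 to 8.44 in the untreated-labelled libraries).

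The mix of subunit RNAs differed as well. Per kilobase of exon, Nfkb2 made up 44.3% to 45.0% of the summed level of the 5 subunits in the untreated-labelled libraries, 17.0% to 18.7% in the Pam3CSK4-labelled ones and 43.1% to 44.3% in the 3SL-labelled ones. Rela went the other way, with 16.6% to 16.8%, 44.3% to 46.0% and 16.5% to 18.4% in the same order of groups. The share of Rel was 6.77% to 7.09%, then 9.46% to 10.7%, then 6.69% to 7.36%. Relb held 10.7% to 10.8%, then 6.35% to 7.22%, then 10.9% to 11.6%. Nfkb1 stayed within 19.7% and 21.3% in all 9 libraries. The size of each share depends on the merged exon length used for each gene. Ratios between the partners of known dimers were taken from CPM without correction for exon length, so they compare groups only. Per kilobase, mean Nfkb1 and Rela stood at 54.4 and 43.6 CPM in the untreated-labelled libraries, and at 8.91 and 20.3 in the Pam3CSK4-labelled ones. The CPM ratio of Nfkb1 to Rela was 4.84 to 5.02 in the untreated-labelled libraries, 1.68 to 1.74 in the Pam3CSK4-labelled ones and 4.46 to 4.92 in the 3SL-labelled ones. The ratio of Nfkb2 to Relb was 4.90 to 4.96, then 2.79 to 3.47, then 4.47 to 4.69, and that of Relb to Rela was 0.806 to 0.812, then 0.177 to 0.199, then 0.748 to 0.854. For Rel to Rela it was 0.978 to 1.04, then 0.507 to 0.587, then 0.897 to 1.08.

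Levels of different genes can be ranked only per length, here as CPM per kilobase of the gene's merged exons. The merged length takes in the exons of every annotated transcript, for example 12061 bases for Nfkb1 and 3072 for Rela. Other lengths could change the order, and none was tried. In the untreated-labelled libraries Nfkbia led with a mean of 692 CPM per kilobase, followed by Nfkb2 at 116, Nfkbiz at 88.2, Nfkb1 at 54.4, Rela at 43.6, Nfkbie at 41.8, Nfkbib at 37.4, Bcl3 at 31.2, Relb at 27.9 and Rel at 18.0. In this order the ranges of neighbours overlapped only for Rela and Nfkbie. In the Pam3CSK4-labelled libraries Nfkbia still led at 28 CPM per kilobase, but Rela came next at 20.3, ahead of Nfkb1 at 8.91, Nfkbib at 8.90, Nfkb2 at 8.14, Rel at 4.53, Relb at 3.02, Nfkbie at 2.97, Bcl3 at 2.42 and Nfkbiz at 0.975. There the ranges of Nfkb1 and Nfkbib, of Relb and Nfkbie, and of Nfkbie and Bcl3 overlapped. The 3SL-labelled libraries had the order of the untreated-labelled ones, from 666 CPM per kilobase for Nfkbia to 16.2 for Rel, with no overlap between neighbours. Nfkbiz moved furthest in this ranking, from position 3 to position 10.

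Set against the untreated-labelled libraries, the 3SL-labelled ones held slightly less RNA of 4 of the 10 genes. Nfkb1, Nfkb2, Nfkbie and Nfkbib were called lower, none was called higher, and 6 were not called, with a median log2 change of -0.12 over the 10. Among all genes tested, 5.11% were called lower and 3.83% higher, with a median change of -0.00. By unadjusted p under 0.05, 6 of the 10 were lower and 0 higher, against 11.1% and 10.1% of all genes tested, and DESeq2 called 3 lower (Nfkb1, Nfkb2 and Nfkbie). Both groups also enter the comparisons above. Nfkb1 was at 88.5% of its untreated-labelled level (95% interval 84.7% to 92.5%, log2 change -0.18, edgeR adjusted p = 0.000278). Nfkb2 was at 87.9% (83.5% to 92.4%, log2 change -0.19, edgeR adjusted p = 0.000696). Both calls held in all 16 alternatives tried, with adjusted p up to 0.00351 and 0.0103.

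The calls of Nfkbie and Nfkbib were lost when any of several libraries was left out, while their log2 changes stayed within -0.20 to -0.14 and -0.19 to -0.13. Nfkbie was at 88.6% of its untreated-labelled level (82.5% to 95.2%, edgeR adjusted p = 0.0253, range over the alternatives 0.00391 to 0.180). Its edgeR adjusted p rose to 0.0726 without A2, 0.180 without B2, 0.0647 without A2plus, 0.0778 without B2plus and 0.0511 without C2plus. Nfkbib was at 89.2% (82.9% to 95.9%, edgeR adjusted p = 0.0400, range 0.0284 to 0.211), and lost its call without A2 (0.134), B2 (0.142), A2plus (0.211) or C2plus (0.0818), with only the 2 groups in the fit (0.0580) and with DESeq2 (0.0887). Rel, at 90.6% (84.8% to 96.8%), just missed the threshold with an edgeR adjusted p of 0.0535 and a range of 0.0142 to 0.237. It passed without D2 (0.0445) or C2plus (0.0142), with median-of-ratios size factors (0.0388) and with no filter (0.0233). With library size as the only scaling, Nfkb1 and Nfkb2 alone of the 10 were called.

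The other 5 genes were not called in this comparison. Rela was at 93.9% of its untreated-labelled level (88.3% to 99.9%, edgeR adjusted p = 0.222) and Relb also at 93.9% (88.0% to 100.3%, adjusted p = 0.263). Nfkbia was at 96.2% (92.1% to 100.4%), Nfkbiz at 95.6% (91.1% to 100.5%) and Bcl3 at 99.2% (91.0% to 108%), with edgeR adjusted p of 0.295, 0.293 and 0.947 and overlapping groups. These intervals bound the differences that could have gone unseen. They do not show that the levels were equal.

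Of 34 further genes of the pathway, the kinases, ubiquitin ligases and feedback regulators that act on NF-κB, 24 were called lower in the Pam3CSK4-labelled libraries than in the untreated-labelled ones, 2 higher and 8 in neither direction. Of all genes tested, 35.9% were called lower and 39.0% higher. Of the 34, 10 were called with a change of at least 2-fold, and all 10 of these were lower. Of all genes tested, 10.8% were called lower by at least 2-fold and 24.0% by at least 2-fold in either direction. The median log2 change of the 34 was -0.53. All 34 had enough counts to be tested. The largest falls were in ubiquitin ligases and feedback genes. Malt1, the paracaspase of the CARD-BCL10 complex, was 20.8-fold lower (803 ± 14.0 against 38.7 ± 2.66 CPM, SD, n = 3 each; edgeR adjusted p = 2.57e-31). Birc3, the ubiquitin ligase cIAP2, fell 14.3-fold, from 319 ± 10.7 to 22.2 ± 2.0 CPM. Tnip1, which helps A20 to restrain the pathway, was 13.9-fold lower, at 779 ± 12.1 against 55.8 ± 1.61 CPM. Tnfaip3, which encodes A20 itself, was 10.3-fold lower, at 843 ± 18.7 against 82.5 ± 8.83 CPM (edgeR adjusted p = 3.02e-28). Nfkbid, another nuclear IκB protein, fell 1.93-fold from a low level, 21.4 ± 2.30 to 11.2 ± 0.518 CPM.

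Of 10 kinase and scaffold genes 6 were called lower, 1 higher and 3 in neither direction. Of all genes tested, 35.9% were called lower and 39.0% higher. The 10 kinase and scaffold genes had a median log2 change of -0.41. The largest change among them was that of Ikbke, an IκB kinase-related kinase, named after its values were seen. It was 7.68-fold lower, at 622 ± 2.45 against 80.8 ± 5.98 CPM (edgeR adjusted p = 3.68e-29), and its 3SL-labelled level was 7.78-fold above the Pam3CSK4-labelled one. Ikbkb, the catalytic subunit of the canonical pathway, went from 123 ± 0.888 to 88.0 ± 2.43 CPM (log2 change -0.48, SE 0.041, edgeR adjusted p = 2.63e-11). Chuk, its partner IKKα, changed by -0.33 (adjusted p = 3.70e-07), which became -0.02 (adjusted p = 0.736) with library size as the only scaling. Ikbkg, the scaffold NEMO, changed by -1.14 (adjusted p = 8.37e-19). Map3k14, the NIK kinase of the non-canonical pathway, stood at 12.7 ± 0.391 and 14.6 ± 1.91 CPM and was not called (log2 change 0.21, adjusted p = 0.0547). Without D3 its change was 0.30 (adjusted p = 0.0120), and without A2plus 0.21 (adjusted p = 0.0492). The 2 genes called higher were Tab1, a TAK1-binding protein, at 10.5 ± 1.17 against 17.8 ± 0.447 CPM (1.66-fold, adjusted p = 7.49e-08), and Rbck1, part of the linear ubiquitin ligase, with a log2 change of 0.13 (adjusted p = 0.0231). The call of Rbck1 was lost without C2 (0.0720) or D3 (0.110), and with DESeq2 (0.147). With library size as the only scaling, which moved the median gene to 0.34 in this comparison, 10 of the 34 were called higher.

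In the 3SL-labelled libraries 23 of the 34 were higher than in the Pam3CSK4-labelled ones, 3 were lower and 8 were not called, with a median log2 change of 0.53. Of all genes tested, 34.7% were called higher and 36.8% lower. Malt1 was 17.1-fold, Birc3 14.2-fold, Tnip1 13.2-fold and Tnfaip3 9.15-fold higher (edgeR's quasi-likelihood test). The changes of Nfkbid, Ikbkb, Chuk and Ikbkg were 1.19, 0.38, 0.43 and 1.26 on the log2 scale, all called higher. Those called lower were Tab1 with -0.69, Commd1, which limits Rela at its targets, with -0.27, and Rbck1 with -0.25. Map3k14, with -0.22 (edgeR adjusted p = 0.0911), was not called, though it was without D3 (-0.31, adjusted p = 0.0231) or A2plus (-0.29, adjusted p = 0.0399). Against the untreated-labelled libraries, where 5.11% of all genes tested were called lower and 3.83% higher, 31 of the 34 were not called. Malt1 (-0.28, edgeR adjusted p = 8.21e-06), Tnfaip3 (-0.17, adjusted p = 0.0137) and Tank (-0.14, adjusted p = 0.0243), which binds TRAF proteins, were lower there, and 0 were higher. By unadjusted p under 0.05, 10 of the 34 were lower and 3 higher, beside the 11.1% and 10.1% of all genes tested. Without A2plus or B2plus only Malt1 of these 3 stayed called, with adjusted p for Tnfaip3 of 0.0902 and 0.0667 and for Tank of 0.123 and 0.0789. Without A2 both also missed the threshold (0.0715 and 0.0726), and without B2 Tank did (0.163). Birc3 had a change of -0.00 and Nfkbid, Ikbkb, Chuk, Ikbkg and Map3k14 of 0.25, -0.10, 0.10, 0.12 and -0.00, none of them called. Nfkbid was called higher without C2plus (0.35, adjusted p = 0.0163).

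**Figure D4:**
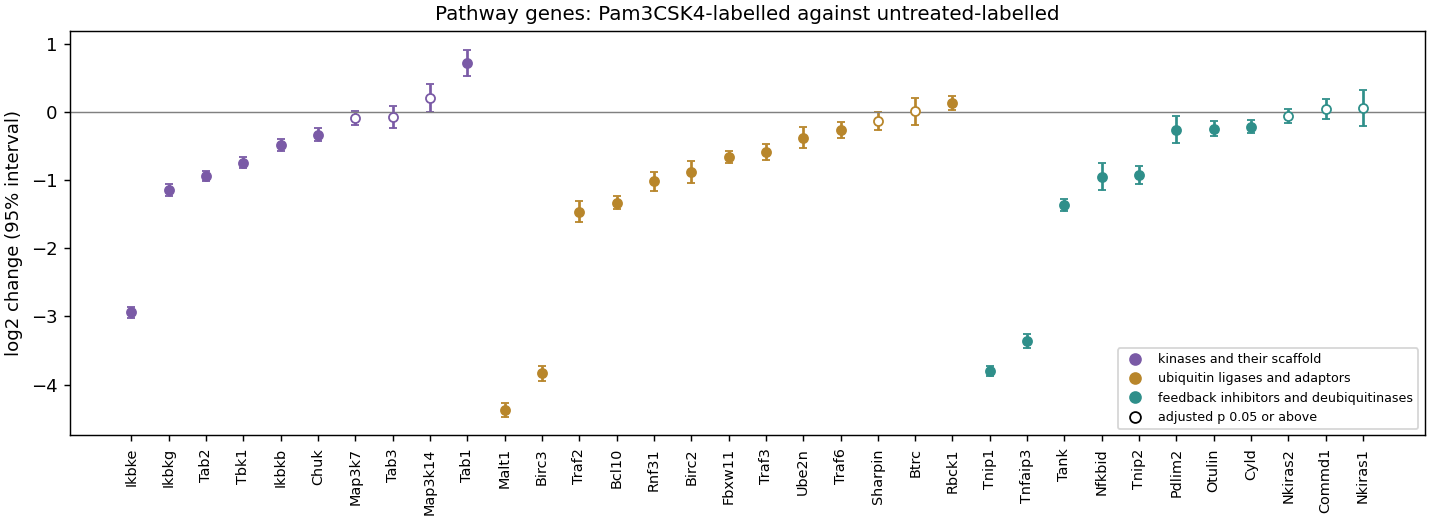
Log2 change of the 34 further pathway genes between Pam3CSK4-labelled and untreated-labelled libraries, 1 point per gene, grouped by role. The 34 genes spread from -4.38 to 0.73. For comparison, the changes of the 10 subunits and IκB proteins in the same libraries were all at or below -1.10.

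Genes that overlap one of the 10 on the opposite strand could share reads with it, since the sources used here do not give the strand setting of the counting. Nfkb2 shares 299 exonic bases (6.52% of its merged exons) with Psd, which stood at 44.0 to 48.6 CPM in the untreated-labelled libraries, 3.15 to 4.56 CPM in the Pam3CSK4-labelled ones and 41.4 to 46.1 CPM in the 3SL-labelled ones. Psd moved with Nfkb2, and the part of shared reads in either gene was not tested. Nfkbib shares 314 bases with Ccer2, at or below 0.0633 CPM in all 9 libraries, and 42 bases (1.94%) with Sirt2, which lay within 85.4 and 101 CPM in all 9. Bcl3 shares 161 bases with the antisense gene Gm16175, and Nfkb2 531 bases with the lncRNA AC114539.1. These RNAs were not analysed here.

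Markers of cell types were read beside these changes. Of all genes tested, 35.9% were called lower and 39.0% higher in the Pam3CSK4-labelled libraries than in the untreated-labelled ones. The 8 macrophage markers, led by Lyz2, summed to between 22181 and 22650 CPM in the untreated-labelled libraries, 16393 and 16822 CPM in the Pam3CSK4-labelled ones and 21551 and 22123 CPM in the 3SL-labelled ones, with 5 of the 8 called lower and 2 higher in the Pam3CSK4-labelled libraries than in the untreated-labelled ones. The 7 neutrophil and progenitor markers, led by Ltf, summed to between 149 and 150, 158 and 181, and 129 and 142 CPM in the same order of groups, with 4 of the 6 tested called higher and 2 lower in the Pam3CSK4-labelled group. For the 6 dendritic cell markers the ranges were 7.52 to 9.43, 0.959 to 3.10 and 5.77 to 5.90 CPM, with Ccr7 the most abundant, and 3 of the 3 tested were lower in the Pam3CSK4-labelled libraries. The 5 stromal markers, mainly Pdgfrb, summed to 11.6 to 12.0, 1.61 to 2.64 and 6.46 to 9.39 CPM. The 7 lymphocyte markers, of which only Cd4 was tested, summed to 10.1 to 11.5, 10.3 to 13.2 and 8.94 to 11.4 CPM. The 5 erythroid and mast cell markers, of which only Kit was tested, summed to 2.65 to 3.86, 4.40 to 5.34 and 1.96 to 3.51 CPM. The macrophage, dendritic and stromal sums were, like the 10 genes, lowest in the Pam3CSK4-labelled libraries. Pdgfrb was the only stromal marker with enough counts to be tested. The part of these cell types in the result was not tested.

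The genes whose levels followed the 10 most closely were looked up for the leading inhibitor and the leading precursor. Among 9668 genes and over the 9 libraries, which fall into 3 separate groups, the 5 with the highest Pearson correlation of log2 CPM with Nfkbia were Gsap, Pde4b, Sod2, Rasa4 and Tnip1. For Nfkb1 they were Tlr2, Tnf, Il1a, Cxcl2 and Clec4e. Correlations were high throughout, since 869 genes exceeded 0.99 with Nfkbia and 848 with Nfkb1, so the order among the top genes carries little weight. The lowest correlation among these 5 was 0.99984 for Nfkbia and 0.99970 for Nfkb1.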

How the data were processed

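The values were raw counts per gene, deposited by the authors in 1 table. The submitters' processing notes name HISAT2 2.1.0, featureCounts and Subread without parameters, and the human build hg38, while the gene identifiers are mouse Ensembl IDs, so the build behind the counts was taken as not settled. RNA was extracted with Trizol and libraries were made with the NEBNext Ultra kit, per the labels' protocols. Strand use in counting is not given in the sources used here. Groups followed the sample descriptions, and 15 other columns of the table were not used. Symbols came from a gene name table (21909 of 22001 IDs matched), and coordinates, exon lengths and overlaps from GENCODE on GRCm38.

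Genes with low counts were removed with edgeR's filterByExpr, leaving 11469. All 9 libraries were fitted in edgeR 4.0.16 (R 4.3.3) with TMM scaling and the quasi-likelihood test, with Benjamini-Hochberg adjustment over all tested genes, a threshold of 0.05, and SEs from the F statistic. CPM used TMM-scaled library sizes. The test was also run on simulated counts in which few genes changed, equally up and down. That run does not check the scaling where most genes are called, as in the comparisons with the Pam3CSK4-labelled libraries. Replicates of a group differed by 1.82 to 3.09 times the sampling variance (chi-square per degree of freedom), so no pair agreed within sampling noise, and their coefficient of biological variation was 0.0365. Alternatives were median-of-ratios size factors, library size only, no filter, DESeq2 1.42.0, only the 2 groups compared, counts thinned to 7472482 per library, each library left out, and the code letters A, B and C as a block. The named pathway genes are, per comparison, among called genes whose log2 CPM averaged 2 or more, up to 4 with the greatest rise and up to 4 with the greatest fall, and in every case Tnfaip3, Map3k14, Nfkbid, Ikbkb, Chuk and Ikbkg. Their alternatives were added after seeing the data, and Ikbke and the value of Birc3 against the untreated-labelled libraries were also named then. The members and lists were chosen with earlier results of these data known.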

Additional observations from a re-analysis of the deposited data

How the results depend on the processing

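The falls and rises of all 10 genes between the Pam3CSK4-labelled libraries and either other group kept their direction and call under all 15 alternatives. In all, 439 of 460 repeated values for the 10 genes kept both, 14 lost a call, 4 gained one and 3 changed sign. The sign changes concerned Bcl3 between 3SL-labelled and untreated-labelled libraries, never called: its log2 change was 0.028 with library size only, and between -0.043 and 0.015 when single libraries were left out. Library size only moved the median gene to 0.34, -0.29 and 0.04 in the 3 comparisons. This setting moved the share of called genes that were higher from 52.0% to 74.3%, 48.5% to 27.6% and 42.8% to 66.0%. With it, 10 further pathway genes were called higher against untreated-labelled libraries (against 2), 9 lower in the 3SL-labelled against the Pam3CSK4-labelled libraries (against 3), and, for 3SL-labelled against untreated-labelled, 2 of the 10 genes were lower (against 4) and 1 pathway gene was higher (against 0) and 1 lower (against 3). Median-of-ratios factors and DESeq2 each left 1 pathway gene called higher in the first comparison. Leaving out single libraries gave 1 to 3 there. For 3SL-labelled against untreated-labelled it gave 2 to 5 of the 10 genes lower, 0 to 1 pathway genes higher, 1 to 4 lower, and 626 (without B2) to 1038 called genes (against 1025). Map3k14 was near 0 in this comparison and changed sign, with 0.037 for library size only, 0.00098 for only the 2 groups, 0.072 thinned and -0.080 to 0.065 with a library left out. Correlations between same-letter libraries, each centred on its group's mean, were -0.017 to 0.042, and 1 of 3 untreated-labelled libraries matched its own letter best. With 3 libraries per group, this cannot decide whether the letters mark shared cultures or animals. With the letters as a replicate block Nfkbib was not called (edgeR adjusted p = 0.0729), Nfkbid was, as the 1 pathway gene higher, and Map3k14 was at 0.0080. The cause of these shifts was not tested. Precision of the Pam3CSK4-labelled against the untreated-labelled group was lowest for Bcl3 and Nfkbie, with SEs of 0.086 and 0.070 on the log2 scale. Nfkbiz, on 65, 88 and 58 counts in the Pam3CSK4-labelled libraries, had a smaller SE of 0.058. The source of these differences was not tested.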
